A study of Homo sapiens with 6 samples.

Results

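Glucose use was followed through 35 genes of glycolysis, lactate handling, pyruvate dehydrogenase and the pentose phosphate pathway in RKO cells, a line established from a human colorectal cancer. The genes were chosen by symbol, and all 35 were found among the 20289 genes of the expression table. RNA sequencing compared cells with a control short hairpin RNA (shControl, n = 3 libraries) and cells with a hairpin against TRMT6 (shTRMT6, n = 3 libraries), both in the RKO background. TRMT6 pairs with the catalytic subunit TRMT61A to form a methyltransferase of adenosine in tRNAs. The labels give no other treatment, and they do not say how many hairpins were used, whether the cells were a clone or a pool, or whether the replicates were separate cultures. P-values therefore rest on differences among these 6 libraries, and part of that spread may be technical. Here the shControl libraries are called controls and the shTRMT6 libraries knockdown libraries. Levels are FPKM (fragments per kilobase of gene and per unit of library size). They adjust for length and library size only, so comparisons between genes or between libraries are approximate. Summed FPKM ran from 602997 to 610332 in shControl and from 620906 to 628135 in shTRMT6 libraries. An n-fold change is the ratio of the mean FPKM, while a log2 fold change is on the log2(FPKM + 1) scale and is therefore smaller for genes of low level.

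Glycolysis turns glucose into pyruvate through a chain of cytosolic enzymes. Pyruvate is then either reduced to lactate, which leaves the cell through monocarboxylate transporters, or taken into mitochondria and oxidised to acetyl-CoA by the pyruvate dehydrogenase complex, which kinases switch off and phosphatases switch back on. The pentose phosphate pathway branches off after the hexokinase step and supplies NADPH and ribose for nucleotides. Colorectal and other tumour cells are known for high glycolysis and lactate release even where oxygen is available.

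The estimated depth was 18.1 to 28.3 M (mega) fragments per library. TRMT6 itself read 14.4, 18 and 16.9 FPKM in the control libraries and 1.58, 1.73 and 1.09 in the knockdown libraries, 11.2-fold lower (log2 fold change -2.82, SE 0.13, limma adjusted p = 4.33e-08). Of 8 markers of colorectal epithelium, CDH1, KRT19, KRT20 and VIL1 were listed at 0 in all 6 libraries, while EPCAM read 3.01 to 7.4, KRT8 8.4 to 11.1 and CDX2 4.53 to 6.39 FPKM, and KRT18 105 to 136 in controls and 179 to 193 in knockdown libraries; fibroblast, leukocyte and endothelial markers were at most 0.65 FPKM. ShControl replicate 1 stood apart from the other controls in its relation to GC content: its deviation from the mean of all libraries rose by 0.22 in log2 per 10 points of transcript GC content, against -0.15 to 0.034 in the other 5. The 35 genes are richer in GC (median 53.1%) than all tested genes (48.8%), and their median deviation in that library was 0.14, against -0.041 over all genes. Values without this library or with the GC trend removed therefore stand beside the calls among the 35 genes that they change.

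All 35 genes reached the mean of 1 FPKM required for testing. In shTRMT6 2 of them rose (LDHB and PDHB), 6 fell (SLC2A1, HK1, PFKFB4, ENO2, SLC16A3 and PGD) and 27 did not pass the threshold (limma on log2(FPKM + 1), Benjamini-Hochberg adjusted p under 0.05 over 10592 genes). The share called, 22.9%, was below the 35.4% called among all genes tested. By direction, 5.71% of the 35 rose against 19.3% of all genes, and 17.1% fell against 16.1%, so the share lower was near the background. Their median log2 fold change was -0.035, against 0.024 over all genes tested. The 2 groups did not overlap for 4 of the 35 that were higher and 9 that were lower in shTRMT6, where 26.2% and 22.1% of all genes did so (48.3% in either direction). No member changed by 2-fold: log2 fold changes ran from -0.48 (SLC16A3) to 0.56 (LDHB). With the replicate number as a block, 6 rose and 6 fell, while the shares of all genes also grew, to 25.5% higher and 21.3% lower. Removing the GC trend gave 5 higher and 6 lower (19.7% and 19.4% of all genes), and leaving out shControl replicate 1 gave 4 higher and 6 lower (17.9% and 16.2%). With the GC trend removed and the block, 7 were higher and 10 lower, against 24.8% and 24.9% of all genes.

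**Figure D1:**
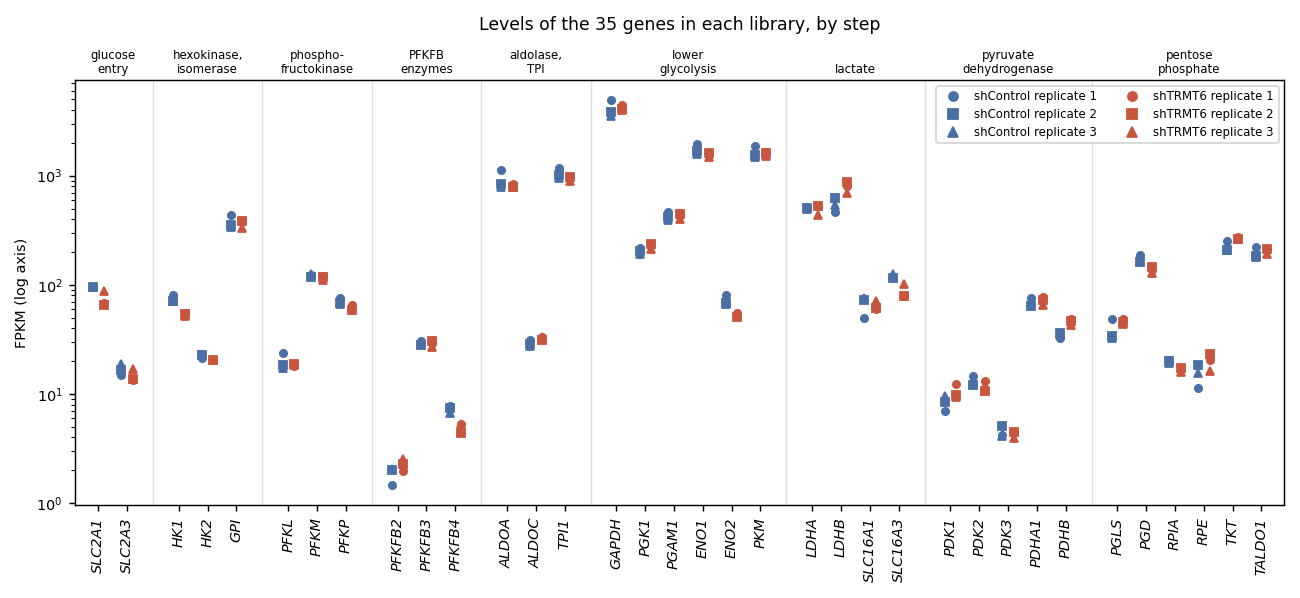
FPKM (log axis) of each of the 35 genes in each library, grouped by step; blue symbols are shControl, red symbols shTRMT6, and the symbol shape marks the replicate number. Levels run from 1.45 FPKM for PFKFB2 to 4966 for GAPDH, and the groups do not overlap for 13 genes, among them HK1, PFKFB4, ENO2 and LDHB.

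The 6 promoter windows printed here belong to genes whose levels are described below. They run from 250 bases before to 50 bases after 1 annotated start per gene (RefSeq, GRCh38.p14; 32 of the 35 genes matched), and are written 5′ to 3′ on the gene's strand. Capitals mark ACGTG or GCGTG on either strand, the core of the element bound by hypoxia-inducible factors, which drive many glycolytic genes; CACGTG, the E-box bound by MYC among others, holds ACGTG on both strands and counts as 2 matches. SLC2A1, PFKFB4 and ENO2 fell, LDHB and PDHB rose, and LDHA is the isozyme of LDHB that did not pass. These 6 hold at least 1 match each, whereas HK1 and SLC16A3, which fell and have no match, are not printed.
SLC2A1 (chr1:42958819-42959118, minus strand): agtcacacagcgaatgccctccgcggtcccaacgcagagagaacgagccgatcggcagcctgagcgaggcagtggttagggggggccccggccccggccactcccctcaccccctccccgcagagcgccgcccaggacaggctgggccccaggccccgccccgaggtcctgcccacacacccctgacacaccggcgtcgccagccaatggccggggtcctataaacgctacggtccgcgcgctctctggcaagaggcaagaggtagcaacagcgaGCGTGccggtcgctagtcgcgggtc
PFKFB4 (chr3:48556754-48557053, minus strand): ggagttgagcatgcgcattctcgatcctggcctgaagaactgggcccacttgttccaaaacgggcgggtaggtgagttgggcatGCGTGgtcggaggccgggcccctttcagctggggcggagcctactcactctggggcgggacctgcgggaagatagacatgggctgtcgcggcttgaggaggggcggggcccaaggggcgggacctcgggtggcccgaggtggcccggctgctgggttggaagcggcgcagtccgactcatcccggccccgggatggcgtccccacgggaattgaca
ENO2 (chr12:6914330-6914629, plus strand): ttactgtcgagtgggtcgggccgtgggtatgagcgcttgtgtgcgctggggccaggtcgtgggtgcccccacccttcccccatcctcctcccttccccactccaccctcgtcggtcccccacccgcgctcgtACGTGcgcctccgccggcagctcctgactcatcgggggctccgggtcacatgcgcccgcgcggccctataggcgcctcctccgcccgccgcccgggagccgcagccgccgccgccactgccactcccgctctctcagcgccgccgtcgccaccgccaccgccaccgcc
LDHA (chr11:18394313-18394612, plus strand): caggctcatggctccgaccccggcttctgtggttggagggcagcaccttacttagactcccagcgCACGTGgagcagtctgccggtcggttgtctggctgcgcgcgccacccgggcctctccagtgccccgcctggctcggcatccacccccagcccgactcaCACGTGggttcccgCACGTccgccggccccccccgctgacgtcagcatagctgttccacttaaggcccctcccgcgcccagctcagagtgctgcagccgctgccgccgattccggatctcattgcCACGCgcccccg
LDHB (chr12:21657793-21658092, minus strand): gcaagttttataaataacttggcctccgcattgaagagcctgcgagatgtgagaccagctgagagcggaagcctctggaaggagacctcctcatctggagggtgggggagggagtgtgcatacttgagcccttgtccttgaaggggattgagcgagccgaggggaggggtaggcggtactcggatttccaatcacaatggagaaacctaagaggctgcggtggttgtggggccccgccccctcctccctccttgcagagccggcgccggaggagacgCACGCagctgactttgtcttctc
PDHB (chr3:58433783-58434082, minus strand): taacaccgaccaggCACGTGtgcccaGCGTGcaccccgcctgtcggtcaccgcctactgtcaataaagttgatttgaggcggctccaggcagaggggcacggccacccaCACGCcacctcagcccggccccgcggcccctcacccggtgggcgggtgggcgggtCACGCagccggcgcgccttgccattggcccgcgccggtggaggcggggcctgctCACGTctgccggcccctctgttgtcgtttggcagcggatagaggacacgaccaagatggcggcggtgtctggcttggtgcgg

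Of the 32 matched windows, 20 (62.5%) held either core, against 65.4% of the windows of tested genes and 48.4% of all 35116 windows. The core was present in 4 of the 6 members that fell (not in HK1 and SLC16A3), in both that rose and in 14 of the 24 matched members that did not pass. LDHA and PDHB had 6 matches each, the most among the 32 matched members, and CACGTG occurred in LDHA, PDHB, GAPDH and ALDOC (12.5% of the 32, against 10.7% of the windows of tested genes). A match describes the letters of this window only.

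Of the glucose transporters, SLC2A1 fell and SLC2A3 did not pass the test. SLC2A1, the main glucose transporter of proliferating cells (GLUT1), read 95.4, 95.7 and 95.7 FPKM in the control libraries and 67.6, 65.3 and 88.4 in the knockdown libraries. The 3 controls were within 1% of each other, and the third knockdown library lay nearer to them than the other 2. The mean fell from 95.6 ± 0.182 to 73.8 ± 12.8 FPKM (SD, n = 3), 1.3-fold (log2 fold change -0.38, SE 0.11, limma adjusted p = 0.0193). This call ended with the GC trend removed (limma adjusted p = 0.0635), when every gene with a value above 0 was tested (0.0628) and without shTRMT6 replicate 1 (0.0935) or 2 (0.0962), within a range of 0.000375 to 0.0962 over 18 alternatives. SLC2A3, the high-affinity transporter GLUT3, was the rarer of the pair, at 15.1, 16.4 and 18.9 FPKM in the control libraries and 13.5, 13.7 and 17 in the knockdown libraries, with overlapping groups (log2 fold change -0.18, SE 0.12, limma adjusted p = 0.269). It was called lower only with the GC trend removed and the block (log2 fold change -0.28, adjusted p = 0.00697, range over 18 alternatives 0.00697 to 0.639). Of the 75-base windows of SLC2A3, 13% also occur in transcripts of other genes, most often SLC2A14, so its fragments can be counted for those genes.

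Of the 2 hexokinases, which carry out the first phosphorylation, the HK1 transcript fell and that of HK2 did not pass the test. HK1, the hexokinase of most tissues, read 81.5, 71 and 71.6 FPKM in the control libraries and 55.3, 54 and 51.6 in the knockdown libraries, with every knockdown library below every control. It fell 1.39-fold (log2 fold change -0.47, SE 0.09, limma adjusted p = 0.00236). HK2, the hexokinase often induced in tumours, read 21.1, 22.7 and 22.9 FPKM in the control libraries and 20.6, 20.7 and 20.4 in the knockdown libraries, lower without overlap but by a small amount that did not pass (log2 fold change -0.11, SE 0.10, limma adjusted p = 0.399, 95% interval -0.31 to 0.10). The summed FPKM of both enzymes went from 96.9 ± 4.94 to 74.2 ± 1.99. GPI, the isomerase of the next step, was overlapping between groups at 336 to 436 FPKM in controls and 329 to 385 in knockdown libraries (log2 fold change -0.03, 95% interval -0.27 to 0.21).

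None of the 3 phosphofructokinase subunits, which catalyse the committed step, passed the test (limma), and none had an unadjusted p under 0.05 (the lowest was 0.0884, for PFKP). PFKM was the most abundant at 117 to 126 FPKM in controls and 110 to 120 in knockdown libraries (log2 fold change -0.07, 95% interval -0.26 to 0.12). PFKP, the platelet-type subunit, read 75.1, 67.5 and 66.8 FPKM in the control libraries and 64.9, 58.9 and 61.6 in the knockdown libraries; its groups were separate, but the difference did not pass (log2 fold change -0.17, limma adjusted p = 0.168). PFKL, the liver-type subunit, was at 19.8 ± 3.26 and 18.5 ± 0.232 FPKM (SD, n = 3), with shControl replicate 1 above all other libraries.

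The PFKFB enzymes make and break the fructose bisphosphate that activates phosphofructokinase. PFKFB4 read 7.77, 7.46 and 6.72 FPKM in the control libraries and 5.34, 4.4 and 5.28 in the knockdown libraries, with no overlap, and fell 1.46-fold (log2 fold change -0.47, SE 0.12, limma adjusted p = 0.00826). PFKFB3, whose kinase activity far exceeds its phosphatase activity, supplied most of the family's FPKM and read 28.3 to 30.5 FPKM in controls and 26.8 to 30.4 in knockdown libraries (95% interval -0.24 to 0.18 on the log2 scale). PFKFB2 was the rarest of the 35 genes, at 1.45, 2.01 and 2.07 FPKM in the control libraries and 1.98, 2.28 and 2.56 in the knockdown libraries, with overlap and a 95% interval of -0.09 to 0.50 on the log2 scale. Its values correspond to about 210 to 420 fragments per library, against about 290 to 680 for PFKFB4.

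Aldolase, triose isomerase and the enzymes from GAPDH to pyruvate kinase form the abundant trunk of the pathway, and here ENO2 was the single gene to pass. ENO2, the enolase named for neurons, read 80.9, 68.1 and 67.3 FPKM in the control libraries and 55.3, 51.1 and 53.2 in the knockdown libraries. All 3 knockdown libraries were below all controls, and it fell 1.36-fold (log2 fold change -0.43, SE 0.10, limma adjusted p = 0.00547). ENO1, the ubiquitous enolase, read 1963, 1677 and 1574 FPKM in the control libraries and 1559, 1600 and 1476 in the knockdown libraries (log2 fold change -0.16, limma adjusted p = 0.217), and passed only with quantile normalization (adjusted p = 0.00965, range over 18 alternatives 0.00965 to 0.836).

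GAPDH, often taken as a reference gene, read 4966, 3818 and 3527 FPKM in the control libraries and 4403, 4072 and 3982 in the knockdown libraries. Its first control library was 1.41 times the lowest control, so the groups overlapped and the interval of the log2 difference was -0.23 to 0.29; the sign turned in part of the alternatives (log2 fold changes -0.08 to 0.18), and it was called higher once, with the GC trend removed and the block (adjusted p = 0.0419, range 0.0419 to 0.97). ALDOA, the main aldolase, read 1118, 845 and 789 FPKM in the control libraries and 845, 787 and 792 in the knockdown libraries. Its first control was again far above the rest. Of its windows, 87.9% also occur in transcripts of other genes, so its level is uncertain. TPI1, triose phosphate isomerase, had a log2 fold change of -0.14, PGAM1, phosphoglycerate mutase, of 0.03, and PKM, pyruvate kinase, of -0.03, all with overlapping groups. PGAM1 shares 39.8% of its windows with transcripts of other genes and TPI1 12.5%, most often of the pseudogene TPI1P1. Their levels are uncertain too. PGK1, phosphoglycerate kinase, which lies at 43.3% GC, read 215, 203 and 192 FPKM in the control libraries and 230.2, 236 and 215 in the knockdown libraries (log2 fold change 0.16, limma adjusted p = 0.183). With the GC trend removed its log2 fold change was -0.01. ALDOC, a minor aldolase, read 31.2, 28.8 and 27.5 FPKM in the control libraries and 33.1, 31.4 and 33.2 in the knockdown libraries, higher without overlap; it did not pass in the reported fit (adjusted p = 0.223) and passed with the GC trend removed (log2 fold change 0.29, adjusted p = 0.00675, range over 18 alternatives 0.0019 to 0.499).

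**Figure D2:**
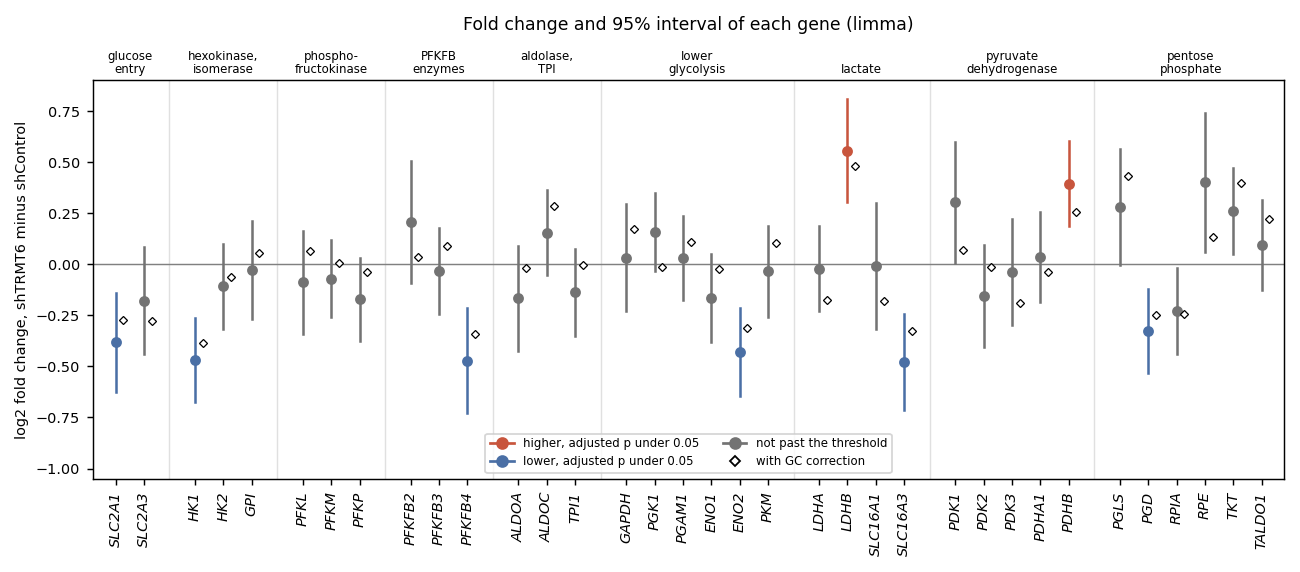
Log2 fold change (shTRMT6 minus shControl, on the log2(FPKM + 1) scale) of each gene with its 95% interval from limma, by step; red and blue mark genes past the threshold, and open diamonds the value with the GC trend removed. The 6 genes that fell lie at SLC2A1, HK1, PFKFB4, ENO2, SLC16A3 and PGD, and the pentose phosphate genes go both ways.

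Lactate dehydrogenase showed the largest rise among the 35 genes. LDHB, the heart-type subunit, which favours the oxidation of lactate to pyruvate, read 468, 624 and 533 FPKM in the control libraries and 805, 876 and 701 in the knockdown libraries. Every knockdown library exceeded every control, although the controls themselves ranged over 1.33 times. It rose 1.47-fold, from 542 ± 78.3 to 794 ± 87.7 FPKM (SD, n = 3) (log2 fold change 0.56, SE 0.12, limma adjusted p = 0.00308), and the call held in all 18 alternatives. LDHA, the muscle-type subunit, which favours the making of lactate, read 505, 506 and 491 FPKM in the control libraries and 525, 527 and 434 in the knockdown libraries. Its groups overlapped (log2 fold change -0.02, 95% interval -0.23 to 0.19), and it was called lower only with the GC trend removed and the block (adjusted p = 0.019, range 0.019 to 0.943). The share of LDHB in the summed lactate dehydrogenase FPKM was 48.1, 55.2 and 52% in shControl and 60.5, 62.4 and 61.8% in shTRMT6. LDHB was thus the larger part in shControl replicates 2 and 3 and in each knockdown library. Its share went from 51.8 ± 3.57% to 61.6 ± 0.953% (SD, n = 3), a difference of 9.81 points (exact permutation p = 0.1, the smallest that 3 libraries against 3 allow, and 0.125 adjusted over 10 families). Without shControl replicate 1 the difference was 7.96 points. Transcripts of other genes hold 54.8% of the windows of LDHB, against 3.76% for LDHA, so the level and share of LDHB are uncertain.

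Lactate leaves and enters cells through the proton-coupled monocarboxylate transporters SLC16A1 and SLC16A3, the latter typical of cells that export lactate. SLC16A3 read 118, 116 and 126 FPKM in the control libraries and 79.2, 78.5 and 102 in the knockdown libraries. As for SLC2A1, the third knockdown library was the nearest to the controls, yet still below them. SLC16A3 fell 1.39-fold (log2 fold change -0.48, SE 0.11, limma adjusted p = 0.00501), a call kept in all 18 alternatives. SLC16A1 read 49.3, 72.7 and 75 FPKM in the control libraries and 59.9, 61.3 and 71.8 in the knockdown libraries, with shControl replicate 1 the lowest of all libraries (log2 fold change -0.01, 95% interval -0.32 to 0.30); it was called lower with the GC trend removed and the block (adjusted p = 0.0432, range over 18 alternatives 0.0432 to 0.979). BSG, the chaperone that both transporters need at the cell surface, read 1005, 881 and 971 FPKM in the control libraries and 754, 714 and 944 in the knockdown libraries and did not pass (log2 fold change -0.25, limma adjusted p = 0.0924).

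**Figure D3:**
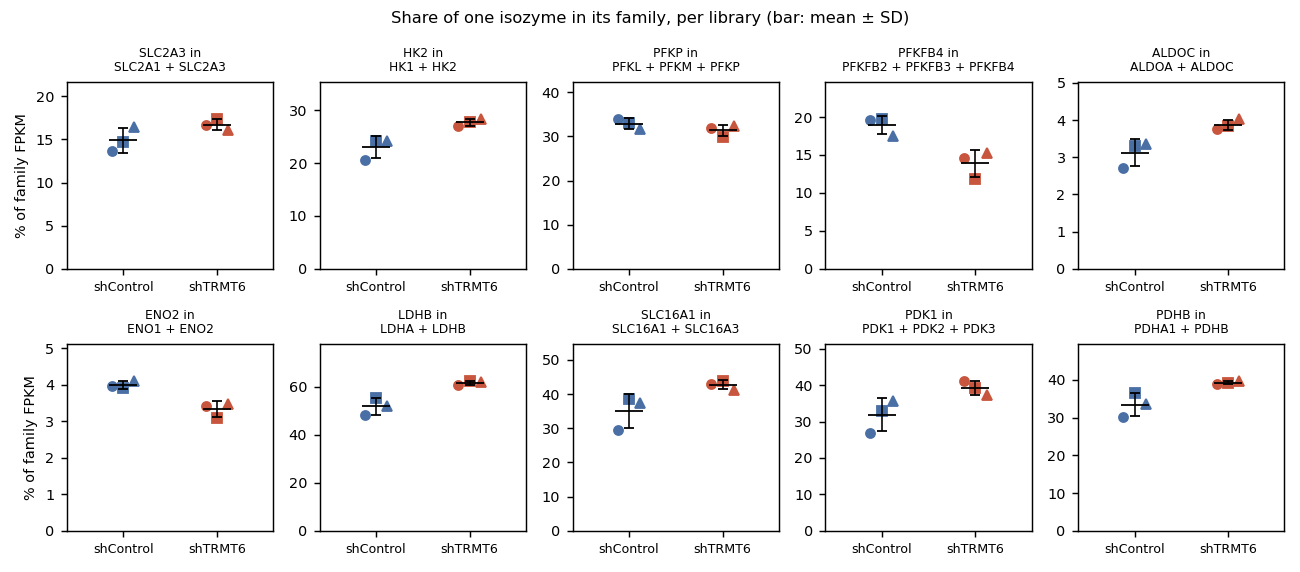
Share of 1 isozyme or subunit in the summed FPKM of its family, in percent, for each library of both groups, with the mean and SD (n = 3); every axis starts at 0. The shares of HK2, ALDOC, LDHB, SLC16A1, PDK1 and PDHB are higher and those of PFKFB4 and ENO2 lower in every knockdown library than in any control, while SLC2A3 and PFKP overlap.

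Shares within a family, or of the 2 subunits PDHA1 and PDHB, do not change when a library's values are all multiplied by 1 factor. In 8 of the 10 families the share of the most abundant member differed without overlap, each with an exact permutation p of 0.1 (0.125 adjusted over the 10 families), which 3 against 3 libraries cannot lower. Of all genes tested, 48.3% had separate groups in their own levels. No such rate was computed for shares of other genes, so the count has no background to be read against. HK2 went from 23 ± 2.08% to 27.7 ± 0.616% (SD, n = 3) of hexokinase FPKM. The share of HK1 changed by -4.70 points, and by -3.50 without shControl replicate 1. SLC16A1 went from 35.1 ± 4.96% to 42.7 ± 1.29% (SD, n = 3) of the transporter pair. Without shControl replicate 1 the accompanying fall in the share of SLC16A3, -7.65 points, was -4.80 points. With the GC trend removed the log2 fold changes of SLC16A1 and SLC16A3 lay closer together, at -0.18 and -0.33. The share of PDK2 among the 3 kinases changed by -6.53 points, and by -3.62 without shControl replicate 1; with the GC trend removed, PDK1 and PDK2 had log2 fold changes of 0.07 and -0.01. ENO2 went from 3.99 ± 0.101% to 3.33 ± 0.21% (SD, n = 3) of enolase and PFKFB4 from 18.9 ± 1.24% to 13.9 ± 1.81% (SD, n = 3) of its family. The exceptions were the glucose transporters, where SLC2A1 held 85.1% and 83.3% (exact permutation p = 0.2, n = 3 against 3), and phosphofructokinase, where PFKM held 57.7% and 59.2% (exact permutation p = 0.4, n = 3 against 3). In 6 of the 8 families without overlap (hexokinase, aldolase, lactate dehydrogenase, the lactate transporters, the PDK kinases, and PDHA1 with PDHB), shControl replicate 1 was the control farthest from the knockdown libraries in the share of the most abundant member.

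At pyruvate dehydrogenase, PDHB, the beta subunit of the decarboxylase, rose while the other members did not pass. PDHB read 32.7, 36.3 and 35 FPKM in the control libraries and 48.5, 46.5 and 42.7 in the knockdown libraries, without overlap, and rose 1.32-fold (log2 fold change 0.39, SE 0.10, limma adjusted p = 0.00709). PDHA1, the alpha subunit that the kinases phosphorylate, read 75.4, 63.4 and 69.4 FPKM in the control libraries and 76.5, 72.1 and 64.9 in the knockdown libraries, with overlap (log2 fold change 0.04, 95% interval -0.18 to 0.25). PDHB went from 33.4 ± 3.07% to 39.2 ± 0.443% (SD, n = 3) of the 2 subunits' FPKM. The share of PDHA1 changed by -5.84 points, and by -4.27 without shControl replicate 1. Of the kinases that inactivate the complex, PDK1 read 6.92, 8.45 and 9.61 FPKM in the control libraries and 12.3, 9.82 and 9.34 in the knockdown libraries; it did not pass (log2 fold change 0.30, adjusted p = 0.0997), but passed with the replicate block (adjusted p = 0.0417, range over 18 alternatives 0.0417 to 0.652), and had a log2 fold change of 0.07 with the GC trend removed. PDK2 read 14.7, 12.1 and 13.2 FPKM in the control libraries and 13.2, 10.7 and 11.7 in the knockdown libraries and PDK3 4.23, 5.05 and 4.15 FPKM in the control libraries and 4.48, 4.52 and 3.98 in the knockdown libraries, both with overlap. PDK3 rests on about 150 to 230 fragments per library.

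Several genes around this step that are not among the 35 had larger changes than PDHB, and others did not pass. They come from a list of 59 other enzymes, carriers and regulators of glucose use, of which 33 were tested; 7 rose and 4 fell (33.3% called, against 35.4% of all genes tested), with a median log2 fold change of 0.014. PDP1, the phosphatase that reactivates the complex, read 3.41, 4.7 and 3.74 FPKM in the control libraries and 13.5, 14.3 and 12.6 in the knockdown libraries and rose 3.41-fold (log2 fold change 1.55, SE 0.12, limma adjusted p = 4.73e-06). DLD, the dihydrolipoamide dehydrogenase subunit shared with other dehydrogenase complexes, read 63.1, 75.9 and 67.6 FPKM in the control libraries and 151, 169 and 132 in the knockdown libraries and rose 2.19-fold (log2 fold change 1.12, SE 0.11, limma adjusted p = 2.7e-05). PDHX, which anchors that subunit, rose 1.69-fold (log2 fold change 0.70, SE 0.11, limma adjusted p = 0.000399), and MPC1, a subunit of the mitochondrial pyruvate carrier, rose 1.63-fold (log2 fold change 0.67, SE 0.10, limma adjusted p = 0.000457). All 4 had separate groups, and each call held in all 18 alternatives, the GC correction included. Their partners MPC2, DLAT, PDP2 and PDPR did not pass (log2 fold changes 0.17, 0.17, 0.13 and -0.23), although MPC2 was also higher without overlap. In total 4 of 8 tested genes of pyruvate entry and dehydrogenase outside the 35 rose and none fell, also at an unadjusted p under 0.05 (limma), against 19.3% and 16.1% of all genes tested. The list was chosen with earlier results of these data known, so these shares cannot measure an excess over all genes.

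**Figure D4:**
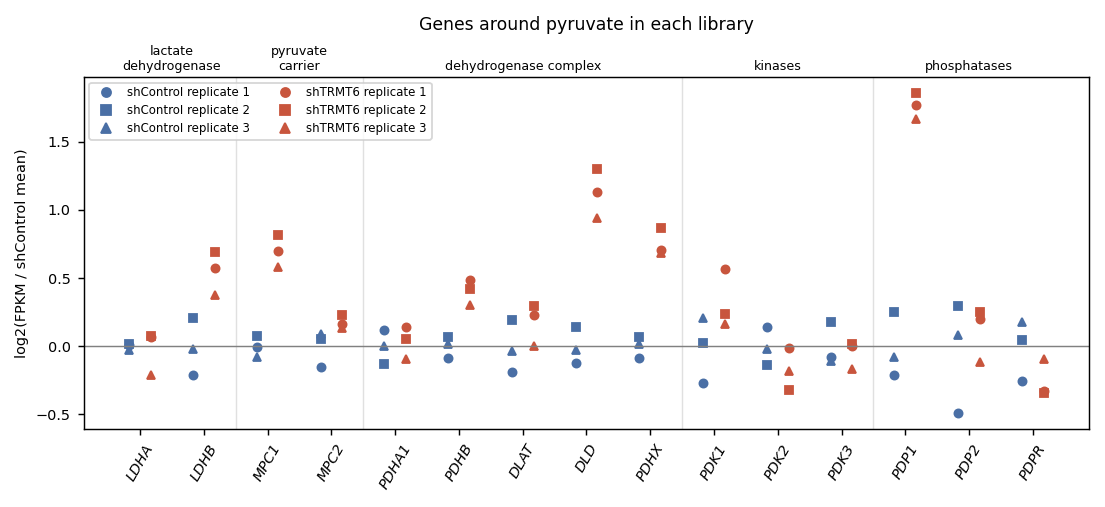
Level of each gene around pyruvate in each library as log2(FPKM / shControl mean), so that 0 is the control mean; blue is shControl, red shTRMT6, and shapes mark the replicate number. PDP1, DLD, PDHX, MPC1, PDHB and LDHB lie above all controls in every knockdown library, as does MPC2, which did not pass the threshold. LDHA, PDHA1 and the kinases overlap the controls.

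The pentose phosphate genes went in both directions. In the oxidative branch, PGD, the dehydrogenase that yields NADPH and ribulose phosphate, read 188, 163 and 164 FPKM in the control libraries and 136, 145 and 129 in the knockdown libraries, all knockdown libraries below all controls. It fell 1.26-fold (log2 fold change -0.33, SE 0.10, limma adjusted p = 0.0173), except without shTRMT6 replicate 1 (adjusted p = 0.0675, range over 18 alternatives 0.000809 to 0.0675). PGLS, the lactonase just before it, read 48.4, 34.1 and 32.8 FPKM in the control libraries and 48.9, 45.5 and 44.1 in the knockdown libraries. Its first control lay among the knockdown libraries and the other 2 lay well below, and it did not pass (log2 fold change 0.28, adjusted p = 0.115); it was called higher with the replicate block (0.0117), with the GC trend removed (0.0057) and without shControl replicate 1 (0.00406), adjusted p ranging over 0.000274 to 0.349.

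In the non-oxidative branch, TKT, transketolase, read 252, 208 and 209 FPKM in the control libraries and 277, 260.4 and 263 in the knockdown libraries. Every knockdown library was above every control, and the difference lay just outside the threshold (log2 fold change 0.26, SE 0.10, limma adjusted p = 0.0519). It was called with the replicate block (adjusted p = 0.00472), with the GC trend removed (0.00184) and without shControl replicate 1 (0.00634), over a range of 7.64e-05 to 0.187. TALDO1, transaldolase, read 220.4, 182 and 179 FPKM in the control libraries and 215, 212 and 191 in the knockdown libraries, with overlap. It was called higher only with the GC trend removed and the block (adjusted p = 0.0056, range 0.0056 to 0.832).

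The 2 enzymes that interconvert the pentose phosphates went opposite ways in mean, neither past the threshold. RPIA, the ribose isomerase, read 20.4, 20 and 19.2 FPKM in the control libraries and 17.2, 17.3 and 16 in the knockdown libraries, lower without overlap (log2 fold change -0.23, adjusted p = 0.0845); it was called lower with TPM scaling (0.0424), median-of-ratios scaling (0.0478) and the GC correction (0.0229), over a range of 0.00906 to 0.185. RPE, the epimerase, read 11.4, 18.3 and 15.4 FPKM in the control libraries and 20.7, 23.1 and 16.4 in the knockdown libraries, with overlap in the third knockdown library (log2 fold change 0.40, adjusted p = 0.0649). RPE was called higher with the replicate block (0.00322) and without shControl replicate 2 (0.012) or shTRMT6 replicate 3 (0.0336), range 0.00322 to 0.29, while the GC correction reduced its log2 fold change to 0.14. At 36.6% it has the lowest GC content of the 35 genes.

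Among regulators of glucose use, TXNIP, which holds back glucose uptake, read 14.8, 13.3 and 14.9 FPKM in the control libraries and 24.4, 22.5 and 24.2 in the knockdown libraries and rose 1.65-fold (log2 fold change 0.69, SE 0.10, limma adjusted p = 0.000357). Its relative ARRDC4 rose 1.87-fold (log2 fold change 0.67, limma adjusted p = 0.00318). Both are known targets of the glucose sensor MLXIP. MLXIP itself read 24.2, 20.4 and 21.4 FPKM in the control libraries and 17.5, 16.5 and 18.9 in the knockdown libraries. It was called lower (log2 fold change -0.30, limma adjusted p = 0.0418). This call ended in 7 of 18 alternatives (adjusted p 0.0118 to 0.155), among them the GC correction without and with the block (0.0922 and 0.0549). MLX, a further regulator on the list, was higher without overlap but did not pass (log2 fold change 0.22, limma adjusted p = 0.085). With the GC trend removed MLX was called higher (log2 fold change 0.28, limma adjusted p = 0.0137). TIGAR, a p53-induced fructose bisphosphatase that lowers glycolytic flux, read 1.96, 2.71 and 2.72 FPKM in the control libraries and 3.74, 3.94 and 3.55 in the knockdown libraries and rose 1.52-fold (adjusted p = 0.0157), a call lost without shTRMT6 replicate 1 (0.0529) or 2 (0.0565), over a range of 0.00465 to 0.0565 in 17 alternatives. Of 5 tested glucose carriers outside the 35, SLC2A8 and SLC2A4 fell 1.51-fold and 2.14-fold (adjusted p = 0.00538 and 0.00552), and none rose, also at an unadjusted p under 0.05 (limma). Of all genes tested 16.1% fell and 19.3% rose, but the carriers belong to the list chosen with earlier results known. SLC2A4, the insulin-responsive transporter, was at 0.66 to 1.75 FPKM. PC, pyruvate carboxylase, fell 1.56-fold (limma adjusted p = 0.0232), a call lost in 5 of 17 alternatives (range 0.0113 to 0.103). Among these 5 were the GC correction without and with the block (0.0634 and 0.0734). The other 26 genes of the list lay under the level for testing, among them PDK4, HKDC1 and FBP1, and 7 were listed at 0 in all libraries.

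**Figure D5:**
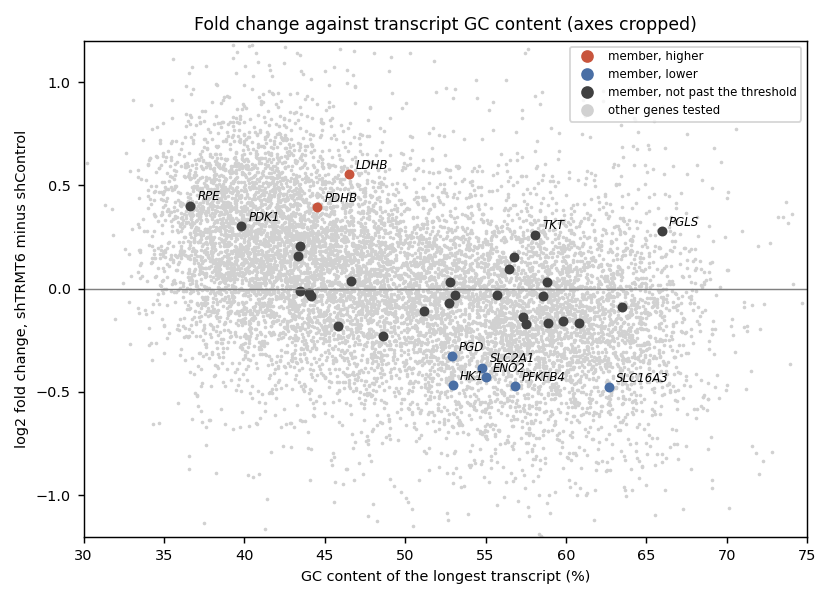
Log2 fold change (shTRMT6 minus shControl) against the GC content of the longest transcript in percent; grey points are all tested genes within the axes, coloured points the 35 genes. Fold changes fall with GC content among all genes; LDHB and PDHB lie on the GC-poor side, the 6 genes that fell between 52.9% and 62.7%, and PGLS and TKT are above the trend.

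Fold changes moved with GC content in these genes as in the rest. Across the 35 genes Pearson's r between log2 fold change and GC content was -0.41, and across 10573 tested genes -0.39; genes of 1 set of libraries are not independent replicates. LDHB and PDHB lie at 46.5% and 44.5% GC, and the genes that fell at 52.9% to 62.7%. With the GC trend removed, LDHB (log2 fold change 0.48, limma adjusted p = 0.00355) and PDHB (0.26, 0.0128) remained higher. HK1 (-0.39), PFKFB4 (-0.34), ENO2 (-0.31), SLC16A3 (-0.33) and PGD (-0.25) remained lower, with adjusted p from 0.00239 to 0.0317. SLC2A1 was no longer called and RPIA was, and ALDOC, PGLS and TKT, at 56.8%, 66.0% and 58.1% GC, joined the genes called higher.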

How the data were processed

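Per the file headers, the deposited table holds 1 FPKM value per gene and library. Tools listed in the submitters' processing notes, with no role, are StringTie 1.3.1, RSEM, HISAT2, Bowtie2 2.2.8 and fastp 0.18.0; for the genome build and the annotation, nothing is given in the sources used here. Columns headed NC and SH with a number were read as shControl and shTRMT6 replicates of that number; the headers do not spell the groups out. Gene names were looked up by identifier (20257 in a name table, 30 more in GENCODE release 29); transcript length and GC content came from the longest coding transcript of that release.

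FPKM are not counts, so limma 3.58.1 (R 4.3.3, trended variance prior, two-sided, Benjamini-Hochberg) was fitted to log2(FPKM + 1) of the 10592 genes that averaged 1 FPKM or more. These fold changes understate those of low genes. Ratios of means are of FPKM. The threshold was an adjusted p of 0.05. Depth was estimated from the smallest steps of low FPKM values in short genes with 1 transcript, searched from 10 to 32 M (mega) fragments, and is rough. The GC correction subtracts from each library its lowess trend (span 0.3) on GC content. The code was tested on simulated data.

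Deviations from the group mean correlated by 0.21, 0.36 and 0.17 between libraries of the same number, and by -0.29 to 0.094 between different numbers. The numbers may therefore pair the libraries, but the labels do not state this. The reported fit did not use the pairing. It enters only the alternatives with the replicate block, and calls that change there are given with the genes. Named were all 35 genes, TRMT6, and the other pathway genes past the threshold. BSG, MPC2, DLAT, PDP2, PDPR, MLX, PDK4, HKDC1 and FBP1 were named after their values were seen. The genes and lists were chosen with earlier results of these data known.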

Additional observations from a re-analysis of the deposited data

How the results depend on the processing

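Over 18 alternatives (pseudocounts of 0.1 and 0.5, no filter or a mean of at least 5 FPKM, TPM, median-of-ratios and quantile scaling, 2 other variance priors, the replicate block, the GC correction with and without the block, and each library left out), 599 of 628 results for single genes among the 35 kept their side of the threshold, 24 passed newly, 5 were lost, and no called gene among the 35 changed sign. The count of the 35 genes that were higher, 2, became 6 with the replicate block, 5 with the GC correction, 7 with the GC correction with replicate block, and 2 to 4 with 1 library left out (4 without shControl replicate 1). The count lower, 6, became 10 with the GC correction with replicate block and 4 to 6 with 1 library left out; at a threshold of 0.01 it was 4. Besides PDK1, PGLS, RPE and TKT, the block alone changed no call among the 35. Their median log2 fold change, -0.035, was -0.094 with quantile normalization and -0.080 to 0.0022 with 1 library left out. Among the other pathway genes, an alternative set chosen after the data were seen, the count lower, 4, became 2 with a mean of at least 5 FPKM, 9 with the replicate block, 7 with the GC correction with replicate block, and 2 to 7 with 1 library left out (2 without shTRMT6 replicate 1 or 2, and 7 without shTRMT6 replicate 3). Of single calls there, those of MLXIP, PC and TIGAR were lost in 7, 5 and 2 alternatives. Depth limits PDK3 and PFKFB2 most.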
